A study of Mus musculus with 5 samples.

Results

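The ocular surface at the limbus is covered by a stratified epithelium, and 8 of its genes other than keratins were followed here in the iridocorneal ring of DBA/2J and Gpnmb+ mice. They are the corneal crystallin enzymes Aldh3a1 and Tkt, the secreted protein Slurp1, the membrane protein Upk1b, and the transcription factors Ehf, Elf3, Klf5 and Trp63. The genes were taken by name, with no cut on their values but with earlier results of these data known, and all 8 were present among the 56941 gene identifiers of the count table. The samples were 3 pools of DBA/2J tissue, the strain with a stop mutation in Gpnmb, and 2 pools of DBA/2J-Gpnmb+/SjJ tissue, called Gpnmb+, which carries the functional Gpnmb allele on the same DBA/2J background with its Tyrp1 b allele. All mice were 12 months old by the labels, of both sexes and untreated. The methods describe 3 mice per pool, whereas the library names list 2 animals for each Gpnmb+ pool. The dissected limbal ring held the outflow tissue, with bits of iris and ciliary body still on it, after cornea and sclera had been cut back. How much surface epithelium stayed on it is not stated.

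The corneal epithelium keeps dividing basal cells at the limbus, and their progeny move inward and upward before being shed. Its cytoplasm is packed with ordinary metabolic enzymes at very high concentration, the corneal crystallins. Of these, Aldh3a1 is an aldehyde dehydrogenase that clears aldehydes and absorbs ultraviolet light, and Tkt is transketolase, the enzyme of the nonoxidative pentose phosphate pathway. Slurp1 is a small secreted protein of the Ly6 family that is abundant in tears and corneal epithelium and restrains inflammation and vessel growth. Upk1b is a tetraspanin of the uroplakin family found in the bladder and on the ocular surface. Trp63 is the master regulator of basal stratified epithelium, Klf5 and Ehf act in proliferating and differentiating layers, and Elf3 is an epithelial ETS factor of differentiation. Ehf and Elf3 belong to the same ETS subfamily, and Klf5 binds GC-rich and CACCC-type boxes.

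The stretch of genome just before the start of Slurp1 is shown because Slurp1 differed most between pools, beside that of Aldh3a1, the most abundant of the 8. Each is the 250 bases before the start of the canonical transcript, 5′ to 3′ on the gene's strand, read from the GRCm39 reference, which is not a DBA/2J sequence. Capitals mark CACCC or its reverse complement GGGTG, found on either strand.
Slurp1, chr15:74599893-74600142, minus strand: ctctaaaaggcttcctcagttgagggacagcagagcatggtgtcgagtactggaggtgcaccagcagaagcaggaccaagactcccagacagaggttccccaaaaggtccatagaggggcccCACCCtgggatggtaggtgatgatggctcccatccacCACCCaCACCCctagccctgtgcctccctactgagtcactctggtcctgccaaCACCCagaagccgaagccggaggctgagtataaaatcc
Aldh3a1, chr11:61099134-61099383, plus strand: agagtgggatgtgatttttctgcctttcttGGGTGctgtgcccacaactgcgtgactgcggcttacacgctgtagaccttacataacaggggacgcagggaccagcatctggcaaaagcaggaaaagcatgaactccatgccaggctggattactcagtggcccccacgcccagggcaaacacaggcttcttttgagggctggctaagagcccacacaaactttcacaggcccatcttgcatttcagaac
The Slurp1 window held 4 matches, of which the pair in the middle is separated by a single base, and the Aldh3a1 window held 1. Tkt also had 1 match, Elf3 and Klf5 had 2 each, and Upk1b, Ehf and Trp63 had none. Over the 21770 windows of protein-coding genes, 52.9% held at least 1 match and 2.49% held 4 or more. For GGAA, the core of ETS sites, or its reverse complement TTCC, every one of the 8 windows held between 1 match (Aldh3a1) and 7 matches (Elf3), and 93.9% of all windows held at least 1. These matches describe letters only, and none was tested for binding. The canonical Trp63 transcript starts inside the gene's span, and gene counts do not separate the forms of Trp63 that start at different promoters.

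The library totals ran from 43900661 to 49837758 counts. Gpnmb, which checks the labels, had 43.6 to 52.0 CPM in the DBA/2J pools and 2555.5 and 2260.5 CPM in the Gpnmb+ pools, where CPM are counts per 1000000 after library sizes were scaled by the TMM method. Sex-linked RNA differed between the groups, with 0 to 2417 counts of Xist in DBA/2J pools against 7843 and 9152 in Gpnmb+ pools, and 1567 to 4168 counts of Ddx3y against 0 and 4. Males are listed among the Gpnmb+ animals in the methods, yet almost no Y-linked RNA was found there. The mix of sexes in a pool and the genotype cannot be told apart. The markers fixed for corneal epithelium were found in every pool: Krt5 was between 2095 and 3825 CPM, Krt14 between 454 and 1364 CPM, Pax6 between 319 and 439.5 CPM, Cdh1 between 155 and 254 CPM and Epcam between 37.8 and 57.9 CPM. Krt12, the keratin of corneal-type epithelium, was also found in every pool but varied far more. It had 254, 116 and 9.44 CPM in pools 1, 2 and 3 of DBA/2J, against 1702 and 554 CPM in pools 1 and 2 of Gpnmb+, a span of 180.3-fold. Krt13, a keratin of the conjunctiva, stayed between 903 and 1154 CPM, and Krt12 amounted to 1.04 counts per 100 counts of Krt13 in DBA/2J pool 3 and 187 in Gpnmb+ pool 1. Epithelial markers were thus present throughout, and the corneal keratin varied widely.

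None of the 8 genes was called different between the genotypes. A call needed a Benjamini-Hochberg adjusted p of at most 0.05 over all 19713 genes tested by edgeR's quasi-likelihood test and a fold change of at least 1.5, and 157 genes met it, 0.796% of those tested (0.294% lower in DBA/2J). DESeq2's Wald test with adjusted p-values and limma-voom called 0 of the 8 as well, where DESeq2 called 4.7% of all genes (1.94% lower). At an unadjusted p of at most 0.05, 4 of the 8 (Slurp1, Elf3, Klf5 and Ehf) passed without a fold minimum, against a background of 15.9% of genes (7.6% lower in DBA/2J), and only Slurp1 also reached the 1.5-fold minimum, against a background of 8.67% (4.48% lower). The fitted log2 fold change, DBA/2J over Gpnmb+, was below 0 for all 8 genes, with a median of -0.41, where 52.6% of all tested genes were below 0 and the median over all of them was -0.017. In 5 of the 8 (Slurp1, Ehf, Elf3, Klf5 and Trp63) all pools of DBA/2J lay under both of Gpnmb+, an arrangement seen in 17.2% of all tested genes (34.5% in either direction). The 8 genes share tissue within each pool, so their common direction is not 8 separate observations. In bulk tissue, fewer epithelial cells and less RNA per cell cannot be told apart. With 3 pools against 2 there are 10 splits. An exact permutation test of 1 gene that doubles the smaller tail therefore cannot give a two-sided p below 0.2.

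**Figure D1:**
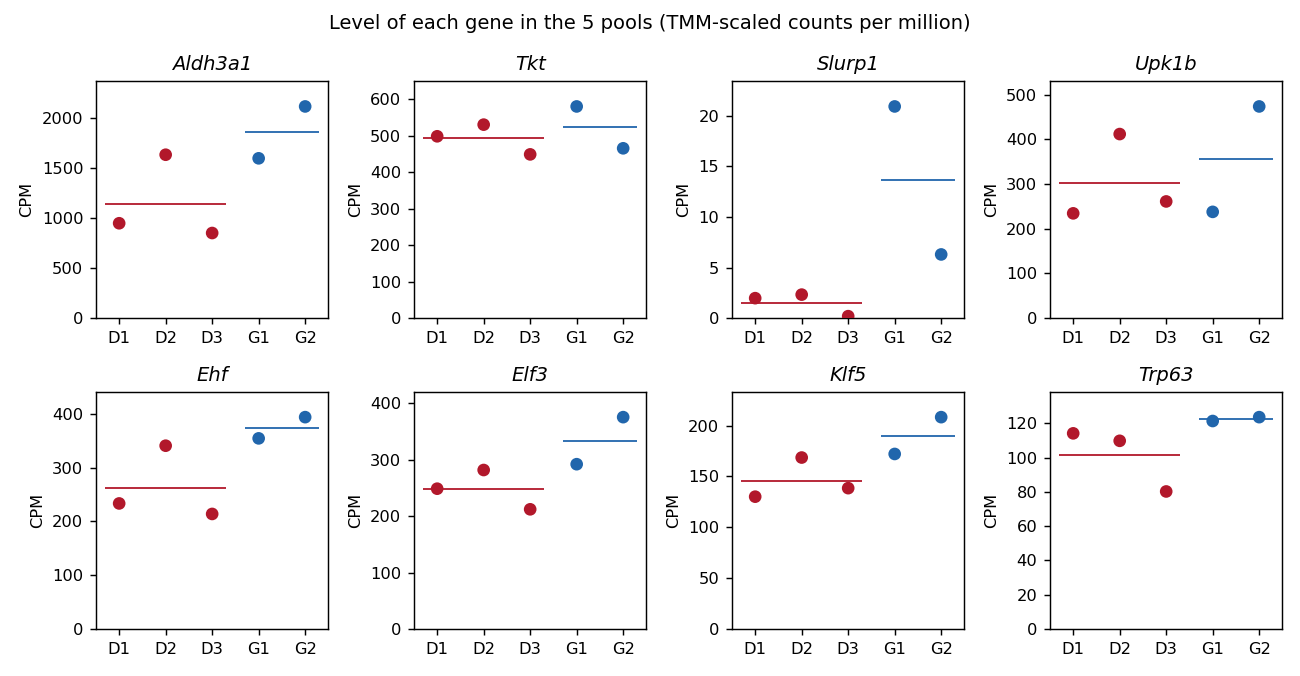
TMM-scaled CPM (vertical axes, starting at 0) of the 8 genes in DBA/2J pools 1 to 3 (D1 to D3, red) and Gpnmb+ pools 1 and 2 (G1 and G2, blue); points are pools and lines are group means. Slurp1 lies at or below 2.33 CPM in all DBA/2J pools and at 6.30 and 20.9 CPM in the Gpnmb+ pools, while Tkt stays between 448 and 579.6 CPM throughout.

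Aldh3a1 lies on chromosome 11 (61098363 to 61109247, GRCm39). Pools 1, 2 and 3 of DBA/2J had 948, 1632 and 850.3 CPM, and pools 1 and 2 of Gpnmb+ had 1596 and 2114 CPM. DBA/2J pool 2 lay just above Gpnmb+ pool 1, so the groups overlapped, and DBA/2J pools 1 and 3 were clearly lower. The means were 1143 ± 426 CPM (SD, n = 3) and 1855 ± 366 CPM (SD, n = 2). The fitted value was -0.70 on the log2 scale (standard error 0.30, 95% interval -1.44 to 0.04, adjusted p = 0.338 by edgeR). Leaving out a pool moved it between -1.04, without DBA/2J pool 2, and -0.48, without Gpnmb+ pool 2.

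Tkt, on chromosome 14 (30270156 to 30299612), was the steadiest of the 8. It had 498, 529.8 and 448 CPM in the DBA/2J pools and 579.6 and 465 CPM in the Gpnmb+ pools, a span of 1.29-fold over all 5. The Gpnmb+ pools held the highest value and the second lowest, and the groups overlapped. On the log2 scale the difference was -0.086 (standard error 0.13, adjusted p = 0.802 by edgeR), and the 95% interval from -0.41 to 0.24 excludes a 1.5-fold difference in either direction. Without Gpnmb+ pool 1 the value was 0.084, on the other side of 0. Both crystallin enzymes were thus abundant in every pool, and they differed in how far they varied.

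Slurp1, on chromosome 15 (74596167 to 74599892), spanned 104-fold between pools. The counts themselves were 88, 100 and 9 for pools 1, 2 and 3 of DBA/2J, against 1061 and 308 for pools 1 and 2 of Gpnmb+. The 9 counts of DBA/2J pool 3 have an exact 95% Poisson interval of 4.12 to 17.1, and the 100 counts of pool 2 one of 81.4 to 122, both covering counting error only. In CPM the values were 1.98, 2.33 and 0.202 against 20.9 and 6.30. Every DBA/2J pool was below both Gpnmb+ pools, but the pools of one genotype were themselves far apart, by 3.53 on the log2 scale within DBA/2J and by 1.73 within Gpnmb+. For Slurp1 the fitted log2 difference came to -3.18 (standard error 0.89, 95% interval -5.34 to -1.02, adjusted p = 0.171 by edgeR), which is 9.05-fold lower in DBA/2J and did not pass the adjusted threshold. Leaving out Gpnmb+ pool 1 gave -2.06, and leaving out Gpnmb+ pool 2 gave -3.80. Slurp1 shares 322 of its 2942 annotated exon bases with Them6 on the opposite strand, and the strand used in counting is not given in the sources used here. Them6 had 103, 105 and 79 counts in pools 1, 2 and 3 of DBA/2J, against 206 and 185 in pools 1 and 2 of Gpnmb+. It was thus lower in every DBA/2J pool, as Slurp1 was (log2 fold change -0.85, adjusted p = 0.147 by edgeR). In DBA/2J pool 3 the Slurp1 count was 9 beside the 79 of Them6. The part of Them6 reads in the Slurp1 counts was not tested.

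Slurp1 followed Krt12. Per 100 counts of Krt12 there were 0.779, 2.01 and 2.14 counts of Slurp1 in pools 1, 2 and 3 of DBA/2J, against 1.23 and 1.14 for Gpnmb+, a span of 2.74-fold, although Krt12 itself spanned 180.3-fold and Slurp1 104-fold. The groups overlapped on that scale, with means of 1.64 ± 0.751 (SD, n = 3) for DBA/2J and 1.18 ± 0.0655 (SD, n = 2) for Gpnmb+. Among all tested genes with a mean of at least 1 CPM, the profile nearest to that of Slurp1 was Krt12 and the next was Lypd2, with root mean square differences of 0.61 and 0.67 in centred log2 CPM over the 5 pools. For each of the other members the nearest gene lay much closer, at 0.02 to 0.07. This search gene by gene was added after the values were seen, and it describes 5 pools that share tissue. Lypd2, another protein of the Ly6 family, had 13.4, 6.71 and 0.807 CPM in DBA/2J and 59.9 and 55.6 CPM in Gpnmb+. The part that the amount of Krt12-expressing epithelium has in the Slurp1 difference was not tested.

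**Figure D2:**
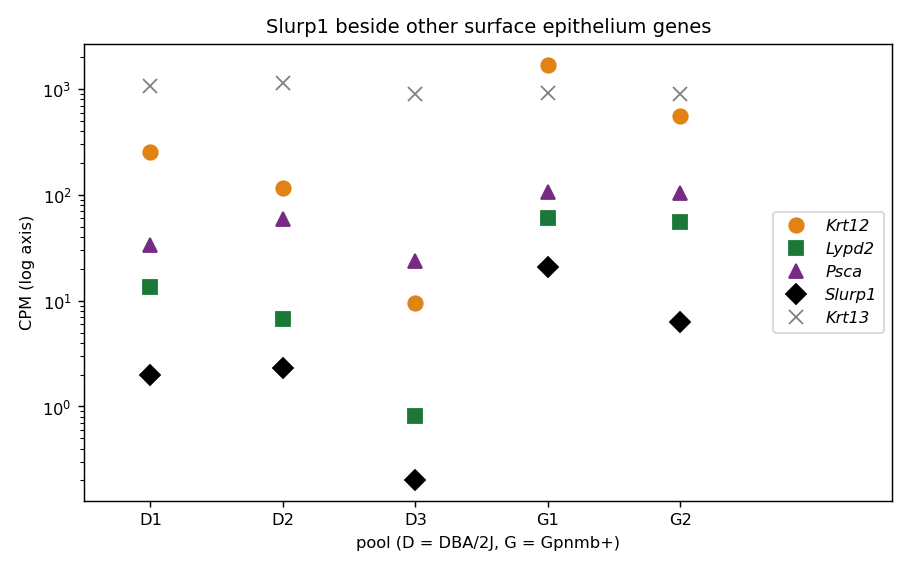
CPM on a log axis for Slurp1, Lypd2, Psca, Krt12 and the conjunctival keratin Krt13 in each pool (D = DBA/2J, G = Gpnmb+; 1 point per gene and pool). Slurp1, Lypd2 and Krt12 are all lowest in DBA/2J pool 3, at 0.202, 0.807 and 9.44 CPM, and highest in Gpnmb+ pool 1, at 20.9, 59.9 and 1702 CPM, while Krt13 is nearly level.

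Upk1b, on chromosome 16 (38591981 to 38620727), did not separate the genotypes. Pools 1, 2 and 3 of DBA/2J had 234, 412 and 261 CPM, and pools 1 and 2 of Gpnmb+ had 238 and 473.5 CPM. The high values were in pool 2 of each strain, and pools 1 and 2 of Gpnmb+ lay 0.99 apart on the log2 scale. The fitted log2 difference was -0.23 (standard error 0.35, adjusted p = 0.796 by edgeR), and its 95% interval from -1.09 to 0.63 leaves differences of 1.5-fold possible both ways. Its direction depended on single pools: leaving out Gpnmb+ pool 2 turned it to 0.35, and leaving out Gpnmb+ pool 1 gave -0.65.

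The ETS factors Ehf and Elf3 had similar profiles, though each also had other near neighbours. Ehf, on chromosome 2 (103093778 to 103133623), had 233, 341 and 214 CPM in the DBA/2J pools against 355 and 394 CPM in the Gpnmb+ pools. Its highest DBA/2J pool was just under the lower Gpnmb+ pool. For Ehf the fitted log2 difference came to -0.51 (standard error 0.21, unadjusted p = 0.0487, adjusted p = 0.310 by edgeR). Elf3, on chromosome 1 (135181306 to 135188999), had 249, 282 and 212 CPM against 292 and 375 CPM, again without overlap. Its log2 fold change was -0.43 (standard error 0.16, unadjusted p = 0.0363, adjusted p = 0.279 by edgeR). For both genes the lowest pool was DBA/2J pool 3 and the highest Gpnmb+ pool 2, and the root mean square difference between their centred profiles was 0.15.

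Klf5, on chromosome 14 (99536086 to 99552473), had 130.1, 169 and 139 CPM in DBA/2J and 172 and 208 CPM in Gpnmb+. The groups did not overlap, although pool 2 of DBA/2J was close to pool 1 of Gpnmb+. Klf5 had a fitted log2 difference of -0.38 (standard error 0.14, unadjusted p = 0.0369, adjusted p = 0.280 by edgeR). Its nearest profile among the 8 was that of Elf3, at a root mean square difference of 0.11, the smallest between any pair of them. Trp63, on chromosome 16 (25502513 to 25710852), had 114, 109.9 and 80.3 CPM in DBA/2J and 121 and 124 CPM in Gpnmb+. The Gpnmb+ pools nearly coincided, and DBA/2J pool 3 alone stood well below them. The fit gave -0.27 on the log2 scale (standard error 0.16, 95% interval -0.66 to 0.12, adjusted p = 0.461 by edgeR). All of the 4 factors missed both the adjusted threshold and the 1.5-fold minimum.

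**Figure D3:**
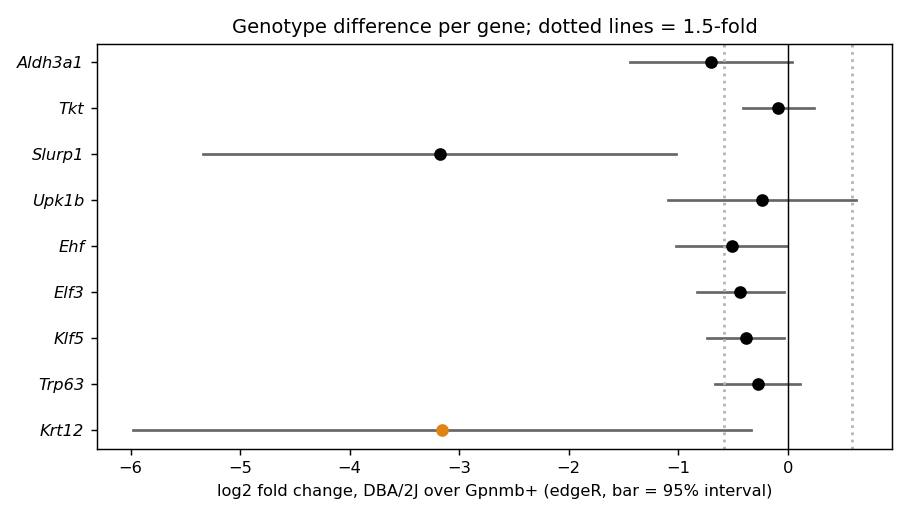
Fitted log2 fold change of DBA/2J over Gpnmb+ (horizontal axis, edgeR) with 95% intervals for the 8 genes (black) and Krt12 (orange); the solid line is no difference and the dotted lines are 1.5-fold. Slurp1 (-3.18) and Krt12 (-3.16) lie far to the left with the widest intervals, and the other 7 genes lie between -0.70 and -0.086.

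Across the 8 genes, DBA/2J pool 3 held the lowest value of 6, namely Aldh3a1, Tkt, Slurp1, Ehf, Elf3 and Trp63, and DBA/2J pool 1 the lowest of Upk1b and Klf5. Gpnmb+ pool 2 held the highest value of Aldh3a1, Upk1b, Ehf, Elf3, Klf5 and Trp63, and Gpnmb+ pool 1 that of Tkt and Slurp1. Centred log2 CPM, computed with a prior count of 2, spanned 0.37 for Tkt, 0.62 for Trp63, 0.68 for Klf5, 0.82 for Elf3, 0.88 for Ehf, 1.01 for Upk1b, 1.31 for Aldh3a1 and 6.42 for Slurp1. Apart from Slurp1, whose nearest neighbour among the 8 was Aldh3a1 at a root mean square difference of 1.77, every gene lay within 0.29 of another. The 5 tested genes nearest to the mean profile of the 8 were 5330411J11Rik, 5430440P10Rik, Abhd11os, Gm44186 and Gm45104, at 0.05 to 0.09, each with a mean under 1 CPM, where counting error is large. That mean profile is carried mostly by Slurp1, whose span of 6.42 compares with 0.37 to 1.31 for the other 7 genes.

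**Figure D4:**
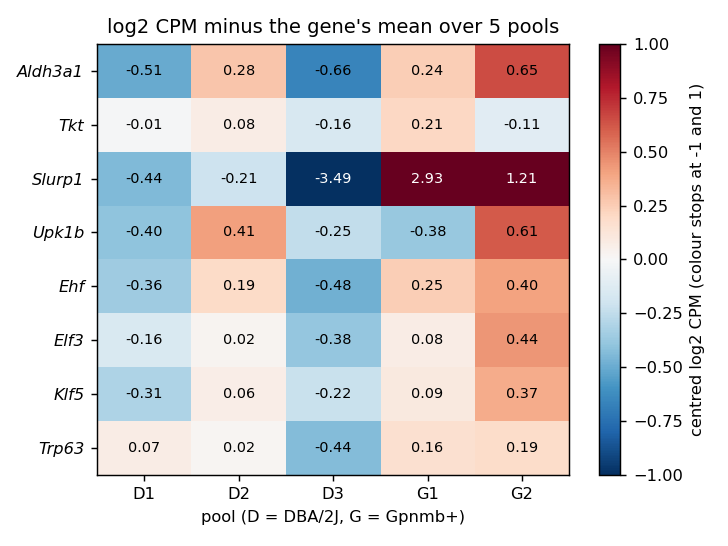
Centred log2 CPM (each gene's log2 CPM, prior count 2, minus its mean over the 5 pools) for the 8 genes (rows) in the 5 pools (columns; D = DBA/2J, G = Gpnmb+), with the value in each cell and colours that stop at -1 and 1. DBA/2J pool 3 is below the mean for every gene, and Slurp1 runs from -3.49 there to 2.93 in Gpnmb+ pool 1.

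Between genes, levels were compared as CPM per kilobase of the canonical transcript, averaged over all 5 pools. Aldh3a1 stood highest at 800.4 ± 294 (SD, n = 5), and its lowest pool, at 477, was above the highest pool of any other member. Tkt followed at 156 ± 16.3, Elf3 at 138 ± 29.9, Upk1b at 92.6 ± 31.8, Ehf at 68.8 ± 17.7 and Klf5 at 48.2 ± 9.15, and each of these neighbours overlapped in their pool ranges. Trp63 at 23.4 ± 3.71 was below Klf5 without overlap, and Slurp1 at 2.21 ± 2.94 was below Trp63 without overlap. Dividing by all annotated exon bases instead moved Tkt, whose annotated exons cover 10469 bases against 3230 in the canonical transcript, from 156 to 48.2, below Elf3, Upk1b and Ehf. The canonical Slurp1 transcript has 2868 bases, nearly all its annotated exon length, so its level per kilobase would be higher for a shorter form.

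The counts of each gene were also set against the summed counts of 16 genes of epithelial junctions, a comparison chosen after the values were seen and given without a test. Whether this sum measures the amount of epithelium in a pool was not tested. It was itself lower in every DBA/2J pool, at 3122 to 4676 CPM against 4932 and 4896 CPM in Gpnmb+. Division by it therefore raises the DBA/2J values of any gene relative to the Gpnmb+ values. The 9 listed genes of basal adhesion and the limbus summed to 1301, 783 and 578 CPM in DBA/2J and 931 and 803 CPM in Gpnmb+, with overlap. Per 1000 junction counts, Trp63 was almost constant, between 23.5 and 26.1 in all 5 pools, with means of 25.1 ± 1.40 (SD, n = 3) for DBA/2J and 24.9 ± 0.452 (SD, n = 2) for Gpnmb+. Klf5 had 36.7 ± 7.35 and 38.7 ± 5.41, Elf3 61.7 ± 5.70 and 67.9 ± 12.3, and Ehf 64.9 ± 10.3 and 76.2 ± 6.07 per 1000 junction counts in DBA/2J and Gpnmb+. On this scale the groups of all 4 factors overlapped, although none did in CPM. Tkt had 124 ± 17.4 and 106 ± 15.9 and Upk1b 75.1 ± 18.8 and 72.5 ± 34.3, so the DBA/2J mean was the higher for both, with overlap. Aldh3a1 had 279 ± 66.5 and 378 ± 76.4, also overlapping, and Slurp1, at 0.338 ± 0.238 and 2.76 ± 2.09, was the 1 gene of the 8 whose groups still did not overlap. Krt12 remained separated as well, at 28.6 ± 27.7 and 229 ± 164. Some junction genes are themselves controlled by these factors, so the scale is not independent of them.

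The 8 genes were then set beside 80 companions in 9 lists, of which 75 were tested. None of the 75 was called by edgeR or limma-voom, and 17 had an unadjusted p of at most 0.05, against 15.9% of all genes. DESeq2's Wald test with adjusted p-values called 5, Muc16 upwards and Aldh1a2, Psca, Lynx1 and Ly6k downwards, where the background was 4.7%. Of the 75, 56 had a log2 fold change below 0, against 52.6% of all tested genes, and their median was -0.23. In 23 all pools of DBA/2J lay under both of Gpnmb+, against 3381 of all 19713 tested genes (17.2%). In 3 (Aldh7a1, Cldn1 and Muc16) they lay above both, against 3419 of all 19713 tested genes.

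The listed relatives of Slurp1 leaned the same way. Of the 8 genes listed from its Ly6 family, all 7 tested had negative log2 fold changes, with a median of -1.02. None was called. The list is a chosen part of the family, and its other genes were not examined here. Psca, Lypd2, Lynx1, Ly6d and Ly6k lie near Slurp1 on chromosome 15, between 74586682 and 74672029. The tested genes of the list that lie elsewhere, Lypd3 on chromosome 7 (-0.38) and Ly6g6c on chromosome 17 (-0.46), had its smallest differences. Ly6d and Ly6g6c are named only for their position, and the part of position in these values was not tested. Lynx1, a membrane-bound modulator of nicotinic receptors, had 32.9, 33.3 and 34.2 CPM in DBA/2J and 58.6 and 44.9 CPM in Gpnmb+ (log2 fold change -0.63, adjusted p = 0.0897 by edgeR). Ly6k had 1.70 to 2.63 CPM against 4.55 and 4.29 CPM (log2 fold change -1.02), and Lypd3, the most abundant of the list, had -0.38. Psca, named after its values were seen, had 33.7, 59.2 and 23.8 CPM against 105.9 and 104 CPM (log2 fold change -1.44, adjusted p = 0.137 by edgeR). Slurp2 was below the count minimum, with at most 5 counts in a pool. Among the uroplakins, 3 of 5 were tested and none was called. Upk3bl, like Upk1b, was lowest in DBA/2J pool 1 and highest in Gpnmb+ pool 2, with 176, 344 and 197 CPM in DBA/2J and 301 and 510.2 CPM in Gpnmb+ (log2 fold change -0.76, adjusted p = 0.355 by edgeR), and Upk2 had 0.247 to 0.613 CPM (-0.90).

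The relatives of the enzymes did not share a direction. Of the 10 other aldehyde dehydrogenases, 4 were below 0, the median was 0.028 and none was called. Aldh1a2, a retinoic acid synthesis enzyme, had a log2 fold change of -0.97 (adjusted p = 0.117 by edgeR), Aldh7a1 had 0.33, and the mitochondrial Aldh2, highest of the list, had 0.053. Of the 6 tested pentose phosphate enzymes other than Tkt, 4 were below 0 with a median of -0.093, and Rpia (-0.38), Pgd (0.25) and Taldo1 (-0.14) ran on both sides of 0 as small differences, none called.

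Among 11 other epithelial transcription factors, 10 had negative log2 fold changes, the median was -0.42 and none was called. Klf4, which acts with Klf5 in the corneal epithelium and is known to drive Slurp1 there, had 149.8, 151 and 169 CPM in DBA/2J and 221 and 248 CPM in Gpnmb+ (log2 fold change -0.58, standard error 0.10, adjusted p = 0.0689 by edgeR). Its groups did not overlap, and pools of one genotype differed by at most 0.17 on the log2 scale, less than the difference between the groups. Among the DBA/2J pools Klf4 was highest in pool 3. The part of Klf4 in the Slurp1 values was not tested. Grhl3, a factor of barrier formation, had -0.42 (adjusted p = 0.115 by edgeR), and Pax6, which is also expressed in the ciliary epithelium and iris, was the 1 factor above 0, at 0.24.

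The lists of structural genes had medians nearer to 0 than that of the transcription factors, although Muc16 and Krt12 lay far from 0. Of 16 junction genes, 15 were below 0 with a median of -0.28. The smallest p-values were those of Epcam (-0.36) and Pkp1 (-0.39), and the most abundant, desmoplakin (Dsp), had -0.41. In the surface and differentiation list, 7 of 10 were below 0 with a median of -0.25. The membrane mucins Muc20 (-0.67) and Muc4 (-0.59) were negative, and Muc16, at 0.717 to 3.98 CPM in DBA/2J against 0.118 and 0.286 CPM, had 3.21 (adjusted p = 0.195 by edgeR). The basal adhesion and limbal list had a median of 0.010, with 3 of 8 below 0. Among them Itga6 had 0.10 and Col17a1 had -0.20. Of the keratins, Krt12 had -3.16 (adjusted p = 0.270 by edgeR), Krt15 -0.16, Krt5 -0.13 and Krt14 0.31.

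**Figure D5:**
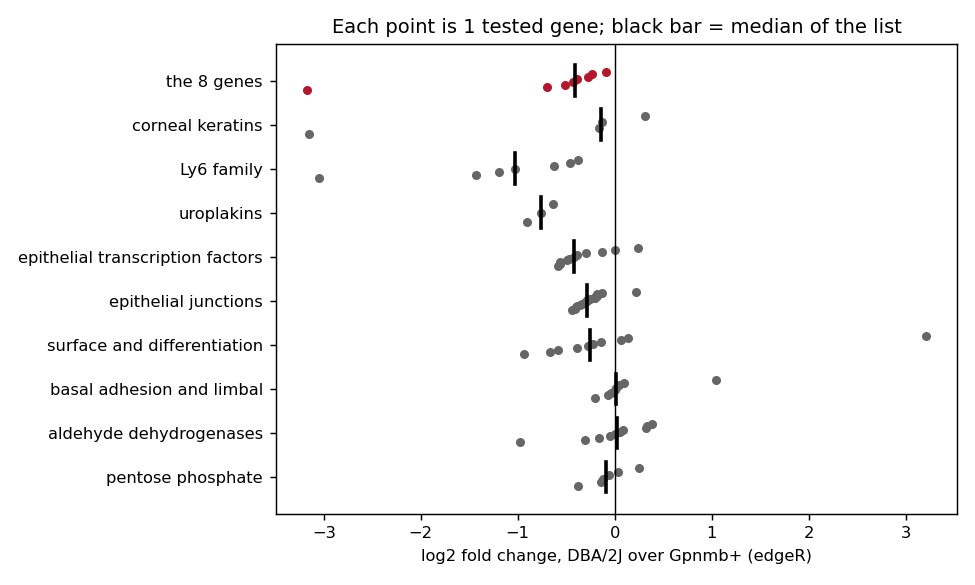
Fitted log2 fold change of DBA/2J over Gpnmb+ (horizontal axis, edgeR) for each tested gene (points) of the 8 and of the 9 companion lists (rows), with the median of each list as a black bar. The medians run from -1.02 in the Ly6 family list and -0.41 in the 8 genes to 0.010 in the basal adhesion list and 0.028 in the aldehyde dehydrogenases.

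Markers of the other cell types in the ring moved to different extents. The summed level of 7 conjunctival and goblet markers was 2068 to 2770.4 CPM in DBA/2J and 2442 and 2250.1 CPM in Gpnmb+, and that of 6 epidermal markers was 9.84 to 11.4 CPM against 11.9 and 9.81 CPM, with Krt2 and Flg at 0 in every pool. The 5 genes of corneal stroma summed to 4089 to 4261 CPM against 4579.9 and 4229.8 CPM, and none of them was called. Kera, the keratocyte proteoglycan, had a log2 fold change of -1.09, Dcn -0.44 and Lum -0.16, while the collagens Col1a1 (0.99) and Col5a1 (0.70) were higher in all pools of DBA/2J than in both of Gpnmb+. The 3 corneal endothelium genes summed to 500.03 to 534 CPM against 557 and 651 CPM, and Slc4a11 among them was called lower in DBA/2J (-1.75, adjusted p = 0.0283 by edgeR). The 4 markers of nonpigmented ciliary epithelium summed to 672 to 875 CPM in DBA/2J against 246 and 140.3 CPM in Gpnmb+, and 2 of them, Col9a1 and Six6, were called higher. Pigment markers (5 genes) summed to 3378 to 4464 CPM against 4221 and 3609 CPM, and skeletal muscle markers (4 genes) to 103 to 275 CPM against 106 and 57.6 CPM. The part of the tissue mix in the values of the 8 genes was not tested.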

How the data were processed

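RNA-seq libraries from 5 pools of iridocorneal tissue (3 DBA/2J, 2 Gpnmb+) were used. Per the labels and the study's methods, the authors enriched mRNA, sequenced paired ends, used fastp for trimming and STAR for alignment (GRCm39, Ensembl 110), and deposited unnormalized counts per gene from reads that aligned uniquely. Tool versions and the strand setting are not given in the sources used here. All columns of the table were used.

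Identifiers were matched to GENCODE release M39 (GRCm39), which held 56323 of 56941. Genes reaching 10 counts in 1 pool or more were tested in R 4.3.3 with edgeR 4.0.16 (TMM scaling, quasi-likelihood test, no covariate, Benjamini-Hochberg adjustment over all genes). DESeq2 1.42.0 and limma 3.58.1 (voom) were alternatives, as were DESeq2's size factors, other count filters, the pool number as a block and each pool left out. With a Gpnmb+ pool left out, the lone remaining pool is assumed to vary like the DBA/2J pools. Standard errors are the log2 fold change over the square root of the F statistic. Sequences were read from the GRCm39 reference. Scripts were tested on simulated data. Python 3.11.15 made tables and figures.

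The 8 genes and the companion lists were chosen with earlier results of these data known. The text names the 8 genes and, in each companion list, the called genes or otherwise the 2 of smallest p and the 1 of highest mean CPM. A single gene that the rule names is not reported here. Genes outside that rule are said to be so, apart from those DESeq2 called, the series and tissue checks and the markers. Nothing says whether pools came from separate litters, and p-values measure the spread between pools. Intervals from counts cover counting error only.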

Additional observations from a re-analysis of the deposited data

How the results depend on the processing

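None of the 8 genes was called under any alternative with adjusted p-values, including each pool left out in turn. With unadjusted p-values edgeR called 1 of them (Slurp1) and DESeq2, an alternative added after the data were seen, called 2 (Slurp1 and Aldh3a1). Direction was kept in all 11 alternative fits for Aldh3a1, Slurp1, Ehf, Elf3, Klf5 and Trp63. Tkt turned to 0.084 without Gpnmb+ pool 1 and Upk1b to 0.35 without Gpnmb+ pool 2, and over the pools left out they ran from -0.24 to 0.084 and from -0.65 to 0.35. Of all tested genes, the 157 called became 1710 with unadjusted p-values, 1552 with DESeq2 and unadjusted p-values, 927 with DESeq2 and adjusted p-values, 360 without the count minimum, and 1 to 217 with a pool left out (6, 1 and 17 without DBA/2J pools 1, 2 and 3, and 217 and 2 without Gpnmb+ pools 1 and 2). Companion genes called rose from 0 to 9 with unadjusted p-values in either tool, to 5 with DESeq2, and from 0 to 1 with a pool left out (Barx2, without Gpnmb+ pool 1). The causes of these shifts were not tested.

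In deviations from the group mean, pools with the same number correlated at r = 0.28 (pools 1) and 0.25 (pools 2). These were taken across 19713 genes, which are not independent. The 2 Gpnmb+ pools deviate from their mean by equal and opposite amounts, so both r values rest on the same Gpnmb+ contrast. They are therefore not separate observations, and with only 2 such pairs and no shared animals the numbers are names. With the pool number as a block, 0 of the 8 genes, 2 companions (Krt12 at -2.50 and Lypd2 at -2.60) and 220 genes in all were called. Depth limits only Slurp1 among the 8, which had 9 counts in its lowest pool.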

Other observations

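Muc5ac, the gel-forming mucin of tears, which conjunctival goblet cells secrete, had 184, 20.8 and 19.3 CPM in pools 1, 2 and 3 of DBA/2J, against 2.90 and 7.75 CPM for Gpnmb+, and Muc5b had 32.5, 5.52 and 3.81 CPM against 0.394 and 0.756 CPM. Every DBA/2J pool was above both Gpnmb+ pools, and DBA/2J pool 1 stood far above the rest. The log2 fold changes were 3.81 for Muc5ac (standard error 1.27, adjusted p = 0.238 by edgeR) and 4.60 for Muc5b (standard error 1.19, adjusted p = 0.151 by edgeR), and neither was called. Of the other goblet cell genes listed, Agr2 differed little, with a log2 fold change of -0.12. Spdef had 1.03, 0.256 and 0.314 CPM in DBA/2J and 0.197 and 0.286 CPM in Gpnmb+. Its groups overlapped, its counts were low and it was highest in DBA/2J pool 1 (log2 fold change 1.14, adjusted p = 0.497 by edgeR). Krt19, shared by conjunctiva and limbus, had -0.62 (adjusted p = 0.110 by edgeR). These values are a description of the pools.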
